A study of Mus musculus with 24 samples.

Results

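The comparison described here is the interaction of Pax5 genotype with leukemia stage in irradiated mice. For each gene it is the leukemic minus preleukemic difference in Pax5+/- mice, less the same difference in wild-type (WT) mice. It uses all 24 of the 24 arrays of the series and was computed for every named gene, of which 15647 of 19938 were bright enough to be tested. A positive interaction means that the stage change was higher, or less negative, in Pax5+/- than in WT mice. All values are log2 signals from 1 array per mouse, so a difference of 1 is a 2-fold difference in signal.

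Every mouse had been exposed to 2 Gy of ionizing radiation. The groups were leukemic Pax5+/- (n = 10), preleukemic Pax5+/- (n = 7), leukemic WT (n = 4) and preleukemic WT (n = 3). Pax5+/- mice carry 1 inactivated allele of Pax5. The leukemic samples are titled bone marrow B cells and came from tumor-bearing marrow, whereas pro-B and pre-B marrow cells gave the preleukemic ones. Leukemia and cell material thus cannot be told apart in either genotype. The label of 3 weeks after irradiation stands on all samples, leukemic ones included. The labels state no age, sex or batch, and the number of arrays limits the precision, above all in the 2 WT groups.

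The Pax5 protein is a transcription factor that turns lymphoid progenitors into committed B cells. It switches on B-cell genes such as Cd79a and Blnk and holds down genes of other lineages, and mutations that reduce it are common in human B-cell leukemia. The interaction asks whether radiation-associated leukemia of mice with 1 Pax5 allele departs from its preleukemic cells in a way that leukemia of WT mice does not.

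B-cell identity genes were bright in all 4 groups, and their mean was lower on every leukemic array than on any preleukemic one. The mean over 11 B-cell identity genes, among them Cd79a and Cd79b, was 9.63 to 10.66 in leukemic Pax5+/-, 11.18 to 11.41 in preleukemic Pax5+/-, 9.79 to 10.30 in leukemic WT and 11.17 to 11.54 in preleukemic WT arrays. Lists of other marrow cells differed in how many genes were called higher in leukemia. Of 16 monocyte and macrophage genes 12 were called higher in Pax5+/- and 8 in WT, and of 23 granulocyte genes 13 and 0. Of 16 dendritic cell genes 7 and 1 were, of 15 T-cell genes 4 and 2, and of 12 erythroid genes 1 and 5. Of 13 natural killer and cytotoxic genes 1 was called higher in Pax5+/- and 0 in WT. All 11 megakaryocyte and platelet genes and 16 of 19 stromal and endothelial genes were called higher in each genotype. Over all genes 27.8% were called higher in Pax5+/- and 18.7% in WT leukemia. Preleukemic WT array 1 stood apart from its group. Its mean over granulocyte genes was 10.26, against 6.53 and 6.57 in arrays 2 and 3, and its mean over mitosis genes was 9.68, against 7.75 and 7.89. The mean of 3 Y-linked genes was high in 5 of 10 leukemic and in 4 of 7 preleukemic Pax5+/- arrays. It was low in all 4 leukemic WT arrays (4.73 to 4.95) and high in all 3 preleukemic WT arrays (8.34 to 8.71), so that in WT the sex of the mice and the stage cannot be told apart.

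The leukemic change ran the same way in both genotypes for most genes. The stage differences of Pax5+/- and WT mice, which share no arrays, correlated across the 15647 genes with a Pearson r of 0.901 and a Spearman rho of 0.857, as a description over genes that are not independent of each other. They had the same sign for 13580 genes (86.8%). In Pax5+/- mice 62.9% of genes passed the test, 4354 of them (27.8%) higher and 5485 (35.1%) lower in leukemia. In WT mice 39.1% did, 2924 of them (18.7%) higher and 3191 (20.4%) lower. With arrays centred on their medians, 5066 genes were called higher and 3502 lower in Pax5+/- and 3379 higher and 2177 lower in WT mice, so which direction held more genes depends on the scaling. Both comparisons called 5457 genes in the same direction and 10 in opposite directions. The median standard error was 0.0791 for the Pax5+/- and 0.123 for the WT stage difference, which has fewer arrays.

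**Figure D1:**
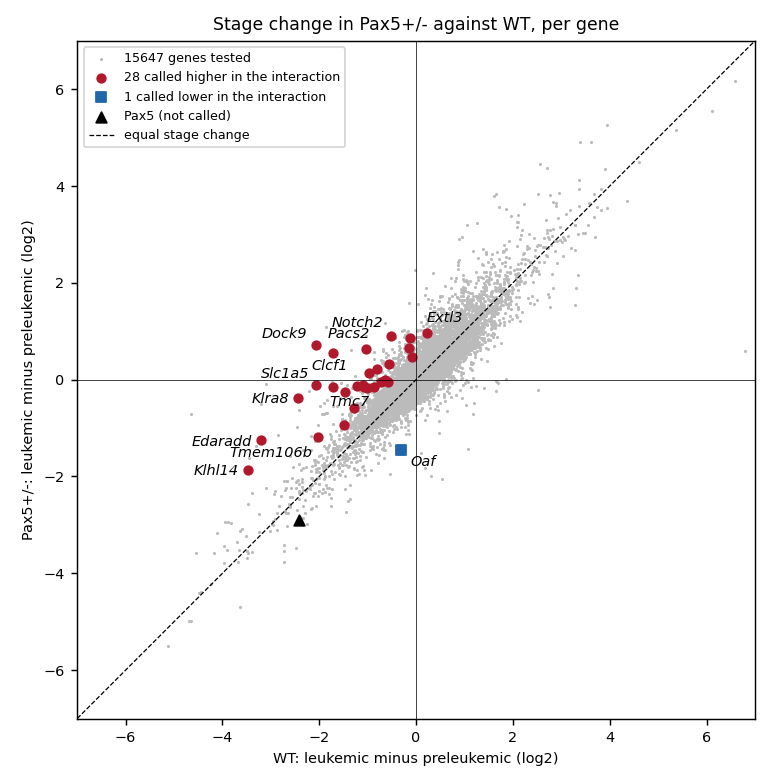
Leukemic minus preleukemic difference (log2) of each of the 15647 genes in Pax5+/- mice (vertical axis) against WT mice (horizontal axis), with the line of equal change dashed. The 28 genes called higher in the interaction (red) lie above the line, mostly where WT fell, Oaf (blue square) lies below it, and Pax5 (triangle) lies close to it.

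The interaction itself was called for 29 genes at an adjusted p under 0.05 (limma with Benjamini-Hochberg adjustment over all genes tested). These were 28 higher (0.179% of genes) and 1 lower (0.00639%), together 0.185%. At an unadjusted p under 0.05 there were 1325 genes (8.47%), and 55 genes had an adjusted p under 0.1. For 13704 genes (87.6%) the 95% interval of the interaction lay within 1 log2 unit of 0, and for 9139 (58.4%) within 0.5. Interactions over 1 log2 unit in size were estimated for 191 genes, 14 of which were called. Without preleukemic WT array 1 the counts were 39 higher, 25 of them among the 28, and 9 lower, Oaf among them. Without preleukemic WT array 3 they were 10 higher, all among the 28, and Oaf. The other 18 higher genes were not called without that array, with adjusted p from 0.0505 to 0.32, while their interactions were 82.6% to 107.2% of the values with all arrays. For 6 of them (Clcf1, Notch2, Tmc8, Tmem106b, Nup210 and Mtor) it was the only array whose absence ended the call, and for the other 12 there were 2 to 18 such arrays. With the Y-linked mean as a covariate 21 of the 28 genes stayed called, and Klra8, Pear1, Galnt11, Adcy7, Extl3, Itpr3 and Zfp106 did not, with interactions at 79.3% to 100.5% of their values without it. Klra8 and Tmc7, 2 of the 28, had passed the filter on dim genes through preleukemic WT alone, the group where they are high, which leaves 26.

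Among the 28 genes, the WT stage difference was called lower for 23 and higher for none. By the calls of both stage comparisons, 4 genes rose in Pax5+/- and fell in WT leukemia, 12 fell in WT and were not called in Pax5+/-, 7 fell in both and more in WT, and 5 rose in Pax5+/- and were not called in WT. The preleukemic genotype difference (Pax5+/- minus WT) of the 28 ran from -3.15 to -0.30, with a median of -0.92, and 27 of them were called lower. Over all genes that comparison called 0.786%, with 0.524% lower and 0.262% higher. The leukemic genotype difference of the same genes ran from -1.20 to 1.06, with a median of 0.05, and 1 was called (Slc1a5, lower). Over all genes that comparison called 0.16%, with 0.109% lower and 0.0511% higher. For 21 of the 28 the 95% interval of the leukemic genotype difference lay within 0.5 log2 units of 0. These comparisons use the same arrays as the interaction, so the counts describe where the interaction lies and are no separate evidence for it. Klra8 and Tmc7, which passed the filter through preleukemic WT alone, are among the 23, the 12 and the 27 genes counted here.

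**Figure D2:**
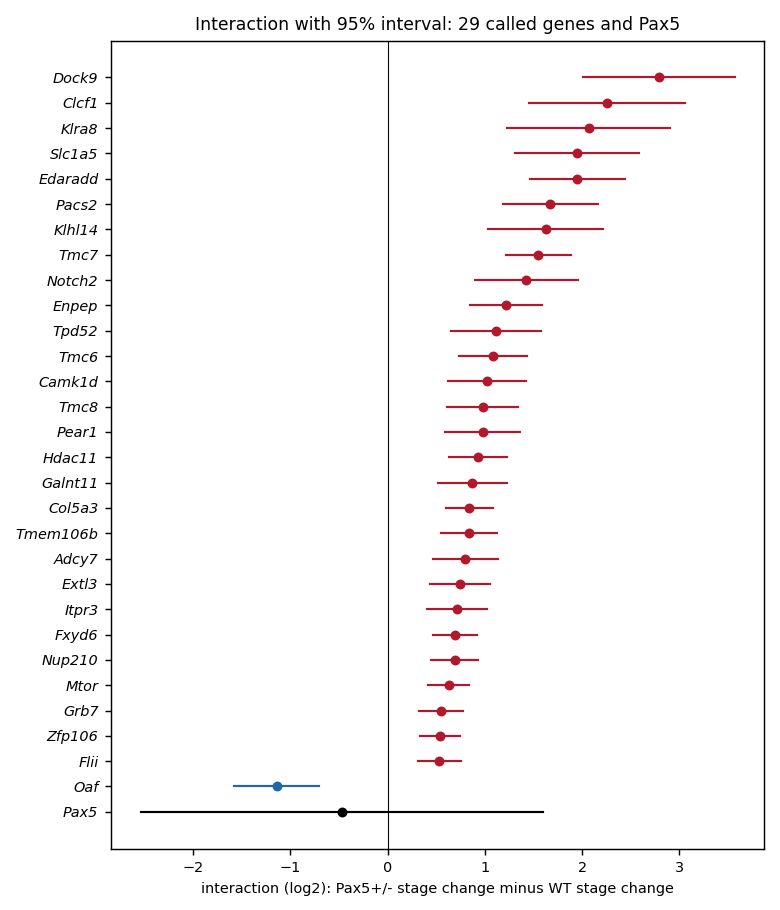
Interaction (log2, Pax5+/- stage change minus WT stage change) with its 95% interval for the 29 called genes and Pax5. Dock9 is highest at 2.79, Oaf is the only called gene below 0 at -1.14, and the interval of Pax5 runs from -2.54 to 1.60.

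Pax5, the mutated gene, fell with leukemia in both genotypes and its stage change was not resolved between them. Pax5 signal was 6.87, 8.34 and 11.37 (lowest, median and highest) in leukemic and 11.34, 11.40 and 11.59 in preleukemic Pax5+/- arrays. It was 10.74, 6.34, 10.67 and 10.03 in leukemic WT arrays and 11.47, 12.00 and 12.16 in preleukemic WT arrays. The WT leukemic arrays lay below every preleukemic one, and 9 of the 10 leukemic Pax5+/- arrays did, while the spread within leukemia was wide in both genotypes. The interaction was -0.47 ± 1.00 (SE; limma adjusted p = 0.956), with a 95% interval from -2.54 to 1.60. An exact two-sided permutation of genotype within stages gave p = 0.617 over 120120 arrangements. Without leukemic WT array 2, where Pax5 was 6.34, the interaction was -1.51 (limma adjusted p = 0.697). Whether the probe set measures functional Pax5 is not given in the labels.

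The genes with opposite stage changes were Dock9, Clcf1, Pacs2 and Galnt11. Dock9, an activator of the small GTPase Cdc42, was 6.83, 7.99 and 8.49 (lowest, median and highest) in leukemic and 6.69, 7.08 and 7.57 in preleukemic Pax5+/- arrays. Dock9 was 6.59, 7.12, 6.70 and 6.57 in leukemic WT arrays and 8.55, 8.99 and 8.90 in preleukemic WT arrays. The WT stages did not overlap, with leukemia lower, while 7 of the 10 leukemic Pax5+/- arrays lay above the highest preleukemic one and the other 3 overlapped that group. The stage difference was 0.72 in Pax5+/- (adjusted p = 0.00452) and -2.07 in WT mice (adjusted p = 3.09e-05), a 1.64-fold rise and a 4.19-fold fall. The interaction of 2.79 ± 0.38 (SE; limma adjusted p = 0.000933) was the largest called.

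Clcf1 encodes a secreted cytokine of the interleukin-6 family that stimulates B cells. It was 6.97, 7.65 and 8.51 (lowest, median and highest) in leukemic and 6.72, 7.46 and 7.59 in preleukemic Pax5+/- arrays. Clcf1 was 6.85, 6.72, 7.22 and 6.90 in leukemic WT arrays and 8.04, 8.91 and 8.95 in preleukemic WT arrays. The Pax5+/- stages overlapped and the WT stages did not. The interaction was 2.26 ± 0.39 (SE; limma adjusted p = 0.00802), from stage differences of 0.55 in Pax5+/- and -1.71 in WT mice. The call ended without preleukemic WT array 3 (adjusted p = 0.0699).

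Pacs2, a sorting protein at contacts of the endoplasmic reticulum with mitochondria, was 8.30, 8.60 and 9.23 (lowest, median and highest) in leukemic and 7.59, 8.07 and 8.42 in preleukemic Pax5+/- arrays. Pacs2 was 8.53, 8.47, 8.47 and 8.29 in leukemic WT arrays and 9.16, 9.49 and 9.77 in preleukemic WT arrays. The WT stages did not overlap, with leukemia lower, and 5 of 7 preleukemic Pax5+/- arrays lay below every leukemic array of either genotype. The interaction was 1.67 ± 0.24 (SE; limma adjusted p = 0.00118). Galnt11, a glycosyltransferase that starts O-linked sugar chains, followed with stage differences of 0.32 in Pax5+/- and -0.55 in WT mice and an interaction of 0.87 ± 0.17 (SE; limma adjusted p = 0.0288). The Galnt11 call ended when any 1 of 8 arrays was left out, all 4 leukemic WT arrays among them.

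**Figure D3:**
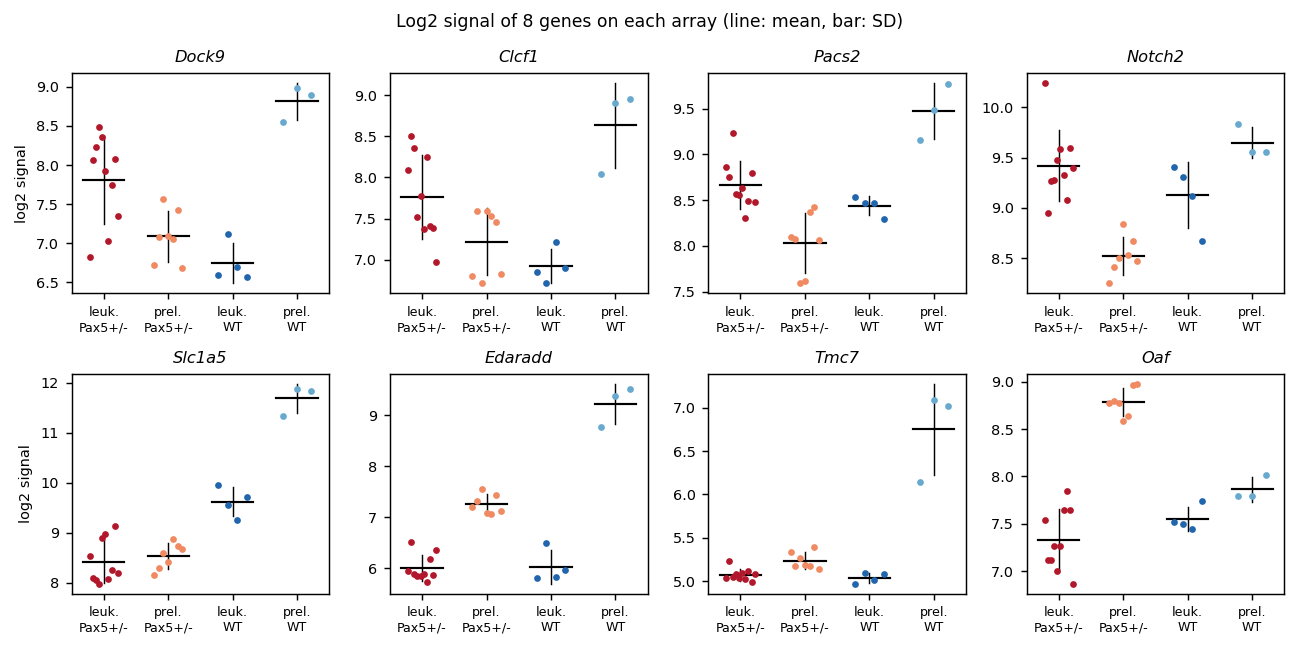
Log2 signal of 8 called genes on each of the 24 arrays, in 4 groups per panel (points: arrays; line: group mean; bar: SD). The preleukemic WT mean is the highest in 7 panels, though single leukemic Pax5+/- arrays reach that group for Clcf1, Pacs2 and Notch2, and in the Oaf panel the preleukemic Pax5+/- arrays are highest.

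The 12 genes that fell in WT leukemia and were not called in Pax5+/- include Slc1a5, Tmc7, Klra8 and the neighbouring pairs Tmc6 with Tmc8 and Hdac11 with Nup210. Slc1a5 encodes a transporter of neutral amino acids that carries glutamine. Slc1a5 signal was 7.98, 8.23 and 9.13 (lowest, median and highest) in leukemic and 8.15, 8.60 and 8.87 in preleukemic Pax5+/- arrays. It was 9.96, 9.56, 9.25 and 9.71 in leukemic WT arrays and 11.34, 11.87 and 11.84 in preleukemic WT arrays. Every WT array lay above every Pax5+/- array, at either stage. The stage difference was -0.11 in Pax5+/- (adjusted p = 0.562) and -2.06 in WT mice (a 4.18-fold fall), an interaction of 1.95 ± 0.31 (SE; limma adjusted p = 0.00358). Slc1a5 was the only one of the 29 genes whose genotype difference was called in leukemia as well (-1.20, adjusted p = 0.015). In preleukemic cells that difference was -3.15, an 8.88-fold lower signal in Pax5+/- mice.

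Tmc7, Tmc6 and Tmc8 belong to the transmembrane channel-like family. The human counterparts of Tmc6 and Tmc8, also named EVER1 and EVER2, are mutated in epidermodysplasia verruciformis, an inherited susceptibility to skin papillomaviruses. Tmc6 and Tmc8 stand head to head on chromosome 11 with 1605 bases between their starts and no other protein-coding gene between them. Their promoters are shown because both genes of the pair were called and have similar values. The promoters of Tmc7, the third called member of the family, and of Dock9, the gene with the largest interaction, are shown beside them. All are from RefSeq (GRCm38.p6) and reach from 250 bases before to 50 after the start, at chr11:117780643-117780942 on the minus strand for Tmc6, chr11:117782047-117782346 on the plus strand for Tmc8, chr7:118584637-118584936 on the minus strand for Tmc7 and chr14:121797685-121797984 on the minus strand for Dock9. Of the 3 Dock9 promoters in the table, the one printed is the only one with GCGTGAC. Capitals mark matches to CANNTG, the E-box, in Tmc6, Tmc8 and Tmc7, and to GCGTGAC, part of the Pax5 binding consensus, in Dock9.
Tmc6: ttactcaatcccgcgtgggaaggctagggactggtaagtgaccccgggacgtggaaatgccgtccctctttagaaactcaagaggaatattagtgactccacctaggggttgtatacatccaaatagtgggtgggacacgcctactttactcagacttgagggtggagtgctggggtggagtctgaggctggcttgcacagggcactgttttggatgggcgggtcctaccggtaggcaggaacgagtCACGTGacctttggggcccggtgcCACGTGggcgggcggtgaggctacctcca
Tmc8: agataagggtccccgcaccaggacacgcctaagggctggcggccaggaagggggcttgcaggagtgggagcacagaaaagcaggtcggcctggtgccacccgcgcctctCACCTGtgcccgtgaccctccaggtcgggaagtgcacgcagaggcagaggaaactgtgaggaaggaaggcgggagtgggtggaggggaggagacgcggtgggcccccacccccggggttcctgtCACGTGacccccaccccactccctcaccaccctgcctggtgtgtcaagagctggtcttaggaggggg
Tmc7: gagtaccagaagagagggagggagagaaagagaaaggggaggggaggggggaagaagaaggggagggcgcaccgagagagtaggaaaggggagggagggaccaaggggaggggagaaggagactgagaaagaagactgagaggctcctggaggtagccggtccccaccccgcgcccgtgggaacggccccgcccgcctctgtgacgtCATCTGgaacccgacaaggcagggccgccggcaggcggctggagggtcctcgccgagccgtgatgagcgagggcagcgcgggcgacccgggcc
Dock9: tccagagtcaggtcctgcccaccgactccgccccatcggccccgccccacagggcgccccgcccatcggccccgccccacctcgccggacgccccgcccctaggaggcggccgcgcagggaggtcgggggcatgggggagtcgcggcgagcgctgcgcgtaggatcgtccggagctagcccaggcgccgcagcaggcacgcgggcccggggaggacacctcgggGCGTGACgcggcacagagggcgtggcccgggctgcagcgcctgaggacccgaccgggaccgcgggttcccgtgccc

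The same letters were counted over all promoters of the table. Searched on both strands, GCGTGAC was in a promoter of 1 of the 23 called genes with a RefSeq promoter entry (4.3%), against 2.4% of 27025 genes. CANNTG was in 16 of the 23 (69.6%), against 75.0% of genes. The motifs do not overlap each other in the promoters shown. A match describes letters in these windows and shows no binding.

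Tmc7 was at background in most arrays of 3 groups, whereas Tmc6 and Tmc8 were bright in all 4. Tmc7 was 4.99, 5.07 and 5.23 (lowest, median and highest) in leukemic and 5.14, 5.18 and 5.39 in preleukemic Pax5+/- arrays, 4.97, 5.09, 5.01 and 5.08 in leukemic WT arrays, and 6.14, 7.09 and 7.02 in preleukemic WT arrays. Only the preleukemic WT arrays stood clear of the dim level, the 30th percentile of an array (5.18 to 5.35), taken here as the level of background. Tmc7 was dim on 9 of 10 leukemic and 6 of 7 preleukemic Pax5+/- arrays and on all 4 leukemic WT arrays, and passed the filter through preleukemic WT alone. With dim arrays set to that level it was at least 2.88-fold lower in leukemic than in preleukemic WT arrays and at least 2.67-fold lower in preleukemic Pax5+/- than in preleukemic WT arrays. The interaction was 1.41 with those arrays at the dim level, and 1.55 (limma adjusted p = 3.63e-05) on the deposited values, of which 19 lie at background.

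Tmc6 was 7.58, 7.82 and 8.23 (lowest, median and highest) in leukemic and 7.63, 7.96 and 8.25 in preleukemic Pax5+/- arrays. Tmc6 was 7.91, 7.94, 7.70 and 7.77 in leukemic WT arrays and 8.81, 9.10 and 9.22 in preleukemic WT arrays. Preleukemic WT lay above all other arrays, which overlapped. The interaction was 1.08 ± 0.17 (SE; limma adjusted p = 0.00358) for Tmc6 and 0.98 ± 0.18 (SE; limma adjusted p = 0.0117) for Tmc8. Tmc8 differed by -0.11 in Pax5+/- leukemia and fell by 1.09 in WT leukemia. Its preleukemic WT arrays, at 9.04, 9.30 and 9.50, also lay above all 21 others, whose highest was 8.62.

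Hdac11, a histone deacetylase, and Nup210, a membrane protein of the nuclear pore, are neighbours on chromosome 6, with 39989 bases between their starts. Hdac11 differed by -0.14 in Pax5+/- and fell by 1.08 in WT leukemia, an interaction of 0.93 ± 0.14 (SE; limma adjusted p = 0.00328). Nup210 differed by -0.05 in Pax5+/- and fell by 0.73 in WT leukemia, an interaction of 0.69 ± 0.12 (SE; limma adjusted p = 0.00771). The preleukemic genotype difference (Pax5+/- minus WT) was -0.93 for Hdac11 and -0.59 for Nup210. The 29 called genes lay on 15 chromosomes, and these 2 pairs were the only ones among them without a protein-coding gene in between.

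Klra8 encodes Ly49H, an activating receptor of mouse natural killer (NK) cells. All 10 leukemic and 6 of 7 preleukemic Pax5+/- arrays were dim for Klra8, and so were all 4 leukemic WT arrays. Klra8 was 8.57, 5.84 and 6.76 in preleukemic WT arrays 1, 2 and 3, above every other array. It passed the filter on dim genes only through preleukemic WT, and was at least 3.56-fold lower in leukemic than in preleukemic WT arrays. The interaction was 1.71 with dim arrays at the dim level. On the deposited values, most of them at background, it was 2.07 (limma adjusted p = 0.0265), and 1.31 without preleukemic WT array 1 (adjusted p = 0.0038). The Klra8 call held in 19 of the 24 fits without single arrays, and ended with the replicate block and with the Y-linked mean as a covariate. The mean over 13 NK and cytotoxic genes ran from 5.78 to 7.19 in the 17 Pax5+/- arrays and was 6.22, 8.74, 5.85 and 5.83 in leukemic WT and 8.49, 6.68 and 7.49 in preleukemic WT arrays. What part NK-cell RNA has in the Klra8 value was not tested. In bulk samples such as these, fewer cells of a type and less RNA per cell cannot be told apart.

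The other members of this group had smaller values. Camk1d, a calcium and calmodulin-dependent kinase, had an interaction of 1.02 ± 0.19 (SE; limma adjusted p = 0.0205), and Tpd52, a protein of vesicle transport, 1.11 ± 0.22 (SE; adjusted p = 0.0321). Mtor, the growth-controlling kinase, was 8.56, 8.71 and 8.85 (lowest, median and highest) in leukemic and 8.59, 8.71 and 8.84 in preleukemic Pax5+/- arrays. Mtor was 8.68, 8.55, 8.82 and 8.35 in leukemic WT arrays and 9.17, 9.16 and 9.37 in preleukemic WT arrays. Its preleukemic WT arrays lay above all others, and the interaction was 0.63 ± 0.10 (SE; limma adjusted p = 0.00463). Itpr3, a calcium release channel, and Flii, an actin-binding protein, had interactions of 0.71 (adjusted p = 0.0475) and 0.53 (adjusted p = 0.0349). These 2 calls were the least stable of the 29, being kept without 6 and 10 of the 24 arrays left out singly.

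Edaradd, Klhl14, Enpep, Col5a3, Tmem106b, Fxyd6 and Grb7 fell with leukemia in both genotypes, and fell more in WT. Edaradd, the adaptor of the ectodysplasin receptor, was 5.73, 5.88 and 6.52 (lowest, median and highest) in leukemic and 7.06, 7.21 and 7.56 in preleukemic Pax5+/- arrays. Edaradd was 5.81, 6.50, 5.82 and 5.96 in leukemic WT arrays and 8.77, 9.38 and 9.52 in preleukemic WT arrays. The leukemias of both genotypes shared 1 level, and the preleukemic cells formed 2 separate levels above it. Edaradd fell by 1.25 in Pax5+/- (2.38-fold) and by 3.20 in WT mice (9.19-fold), an interaction of 1.95 ± 0.24 (SE; limma adjusted p = 0.000246).

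Klhl14, a kelch-repeat protein, fell by 1.86 in Pax5+/- and by 3.48 in WT leukemia. All 14 leukemic arrays lay between 5.18 and 5.47, while preleukemic Pax5+/- arrays ran from 6.86 to 7.94 and preleukemic WT arrays were 8.02, 9.35 and 9.11. Those leukemic values lie close to the dim level, with 1 of the 14, a Pax5+/- array, at or below it. The WT fall was 11.2-fold. The Klhl14 interaction was 1.62 ± 0.29 (SE; limma adjusted p = 0.0103). Tmem106b, a lysosomal membrane protein, showed the same order at a higher signal, falling by 1.19 in Pax5+/- and by 2.03 in WT mice with an interaction of 0.84 ± 0.14 (SE; limma adjusted p = 0.00657).

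Enpep encodes the aminopeptidase known as BP-1, a surface marker of early B cells in the mouse. Enpep lay between 5.13 and 5.39 on leukemic and between 5.42 and 5.64 on preleukemic Pax5+/- arrays. It was 5.43, 5.30, 5.26 and 5.42 in leukemic WT arrays and 7.51, 6.38 and 6.59 in preleukemic WT arrays. Preleukemic WT stood above every other array. The interaction was 1.22 ± 0.18 (SE; limma adjusted p = 0.00202), and 0.87 without preleukemic WT array 1. That SE uses 1 spread shared by the 4 groups, while the SD was 0.60 in preleukemic WT and at most 0.08 in the others. Grb7, an adaptor of receptor tyrosine kinases, Fxyd6, a regulator of the sodium pump, and Col5a3, a collagen chain, had interactions of 0.55, 0.69 and 0.84 (adjusted p = 0.0269, 0.00358 and 0.000933).

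Notch2, Pear1, Adcy7, Extl3 and Zfp106 rose in Pax5+/- leukemia and were not called in WT. Notch2, a receptor that marginal-zone B cells of the mouse require, was 8.95, 9.36 and 10.24 (lowest, median and highest) in leukemic and 8.25, 8.50 and 8.84 in preleukemic Pax5+/- arrays. Notch2 was 9.41, 9.31, 9.12 and 8.67 in leukemic WT arrays and 9.83, 9.56 and 9.56 in preleukemic WT arrays. The Pax5+/- stages did not overlap, with leukemia higher, and neither did the WT stages, with leukemia lower. The stage difference was 0.90 in Pax5+/- (adjusted p = 9.72e-06) and -0.52 in WT mice (adjusted p = 0.0574), an interaction of 1.42 ± 0.26 (SE; limma adjusted p = 0.0117).

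Extl3, a glycosyltransferase of heparan sulfate synthesis, was the only one of the 28 without a called preleukemic genotype difference (-0.30, adjusted p = 0.340). It rose by 0.97 in Pax5+/- leukemia and differed by 0.22 in WT mice, with leukemic Pax5+/- arrays from 8.15 to 8.73 and leukemic WT arrays at 7.96, 7.93, 8.05 and 7.73. The leukemic groups thus did not overlap for Extl3, and the interaction was 0.75 ± 0.15 (SE; limma adjusted p = 0.0310). Pear1, a platelet and endothelial receptor, and Adcy7, an adenylyl cyclase, rose by 0.85 and 0.65 in Pax5+/- leukemia, with interactions of 0.98 and 0.80 (adjusted p = 0.0213 and 0.0322). Zfp106, a zinc finger protein, rose by 0.46 in Pax5+/- and differed by -0.08 in WT mice, an interaction of 0.54 (adjusted p = 0.0141).

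Oaf was the only gene called lower. It was 6.87, 7.27 and 7.85 (lowest, median and highest) in leukemic and 8.58, 8.78 and 8.98 in preleukemic Pax5+/- arrays. Oaf was 7.52, 7.50, 7.45 and 7.74 in leukemic WT arrays and 7.79, 7.79 and 8.02 in preleukemic WT arrays. Preleukemic Pax5+/- arrays lay above all others, and the other 3 groups lay close to each other. Oaf fell by 1.45 in Pax5+/- leukemia (2.74-fold) and differed by -0.31 in WT mice (adjusted p = 0.163), an interaction of -1.14 ± 0.21 (SE; limma adjusted p = 0.0142). The call ended without leukemic WT array 4 and without preleukemic WT array 2, with an adjusted p of at most 0.0628.

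Of the lower genes, 9 more had an adjusted p under 0.1 without passing the test, 1 of them a predicted gene. Prep, a prolyl endopeptidase, had an interaction of -0.53 (adjusted p = 0.0507), from falls of 2.00 in Pax5+/- and 1.46 in WT leukemia. Rnf2, a ubiquitin ligase of Polycomb complexes, had -0.51 (adjusted p = 0.0604) and Mcoln2, an endolysosomal ion channel, -1.27 (adjusted p = 0.0850). Cenpv, a centromere protein, had stage differences of 1.57 in Pax5+/- and 2.43 in WT mice and an interaction of -0.86 (adjusted p = 0.0914). Lancl1, Epb41l4b, Uqcr11 and Bud31 were between -0.97 and -0.49, with adjusted p from 0.0637 to 0.0850, and Polr2j followed at -0.45 (adjusted p = 0.184).

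Gene lists of B-cell development, leukemia pathways and marrow cell types held 566 genes, 557 of them tested. Klra8 was the only member of any list that was called (0.18% of the list genes, beside 0.185% of all genes). The 24 Pax5-activated genes had a median stage difference of -2.14 in Pax5+/- (19 called lower, 3 higher) and -2.13 in WT mice (20 called lower). Over all genes 35.1% were called lower and 27.8% higher in Pax5+/-, and 20.4% lower in WT mice. Their median interaction was 0.11, with 14 of 24 above 0, beside a median of 0.01 and a share of 52.4% above 0 over all genes tested. That list median ran from 0.04 to 0.37 without single arrays. Siglecg, an inhibitory B-cell receptor, was the closest to a call among them, with an interaction of 0.98 ± 0.32 (SE; limma adjusted p = 0.363). The 23 Pax5-repressed genes had a median interaction of 0.36, which was 0.11 without preleukemic WT array 1.

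Early B-cell genes were mostly above 0 in the interaction without any call. Of 24 pro-B and pre-B genes 20 were positive (median 0.40), and of 18 genes of pre-B-cell receptor signalling 16 were (median 0.22), beside 52.4% of all genes. Without single arrays the pro-B and pre-B median ran from 0.18 to 0.45 and the receptor signalling median from 0.17 to 0.40. Blnk, the adaptor of the pre-B-cell receptor, had an interaction of 1.92 ± 0.74 (SE; limma adjusted p = 0.471), from stage differences of -1.38 in Pax5+/- and -3.30 in WT mice. Rag1 and Rag2, which cut antigen receptor genes, had interactions of 0.91 and 0.48 (adjusted p = 0.778 and 0.924) with intervals from -0.47 to 2.30 and from -0.96 to 1.93. Il7r, the receptor for interleukin-7, had an interval from -0.72 to 0.46 around an interaction of -0.13.

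For some genes with large leukemic changes the interval of the interaction held 0 and lay within 1 log2 unit of it. Polm, a polymerase of antigen receptor joining, had stage differences of -4.21 in Pax5+/- and -4.23 in WT mice, with an interaction interval from -0.55 to 0.59. Fcrla, related to Fc receptors and expressed in B cells, had -5.50 in Pax5+/- and -5.12 in WT mice, with an interval from -0.93 to 0.18. Neil1, a base-excision repair glycosylase, had -3.55 in Pax5+/- and -3.39 in WT mice, with an interval from -0.76 to 0.44. Wider intervals were those of Ppbp, a platelet chemokine with stage differences of 6.18 in Pax5+/- and 6.58 in WT mice (interval from -1.51 to 0.69). Ikzf3, a transcription factor related to Ikzf1, had -4.98 in Pax5+/- and -4.68 in WT mice (interval from -1.39 to 0.80). Ikzf1 (0.07, interval from -0.20 to 0.35) and Ebf1 (0.41, interval from -0.20 to 1.01), 2 transcription factors of the B lineage, fell in both genotypes.

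For other leukemia genes the intervals stayed wide. Myc had stage differences of 3.58 in Pax5+/- and 2.88 in WT mice and an interaction of 0.70 ± 0.61 (SE; limma adjusted p = 0.835). Flt3, a receptor of early progenitors, had an interaction of 1.30 with an interval from -0.34 to 2.93, and Bcl2, an inhibitor of cell death, 1.48 with an interval from 0.16 to 2.81 (adjusted p = 0.522). Nf1, a brake on RAS signalling, came closest to a call among leukemia oncogenes and tumour suppressors at 0.74 ± 0.16 (SE; limma adjusted p = 0.0710), with stage differences of 0.61 in Pax5+/- and -0.13 in WT mice.

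No gene of the DNA-damage response lists was called, where 0.185% of all genes were, so a count of 0 does not set these lists apart. The median interaction was -0.12 for 22 genes of damage sensing and checkpoints, -0.13 for 25 of homologous recombination and the Fanconi pathway, -0.01 for 16 of end joining, -0.02 for 25 of excision and mismatch repair and -0.10 for 21 p53 targets. Without preleukemic WT array 1 the recombination and Fanconi median was -0.33 and that of p53 targets 0.02. The interval lay within 1 log2 unit of 0 for 19, 24, 14, 23 and 18 of these genes, in the same order, beside 87.6% of all genes tested. Atm, the kinase that signals DNA breaks, had stage differences of 0.71 in Pax5+/- and 0.61 in WT mice and an interaction interval from -0.36 to 0.57. Parp3 came closest to a call, at 0.54 ± 0.16 (SE; limma adjusted p = 0.237).

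**Figure D4:**
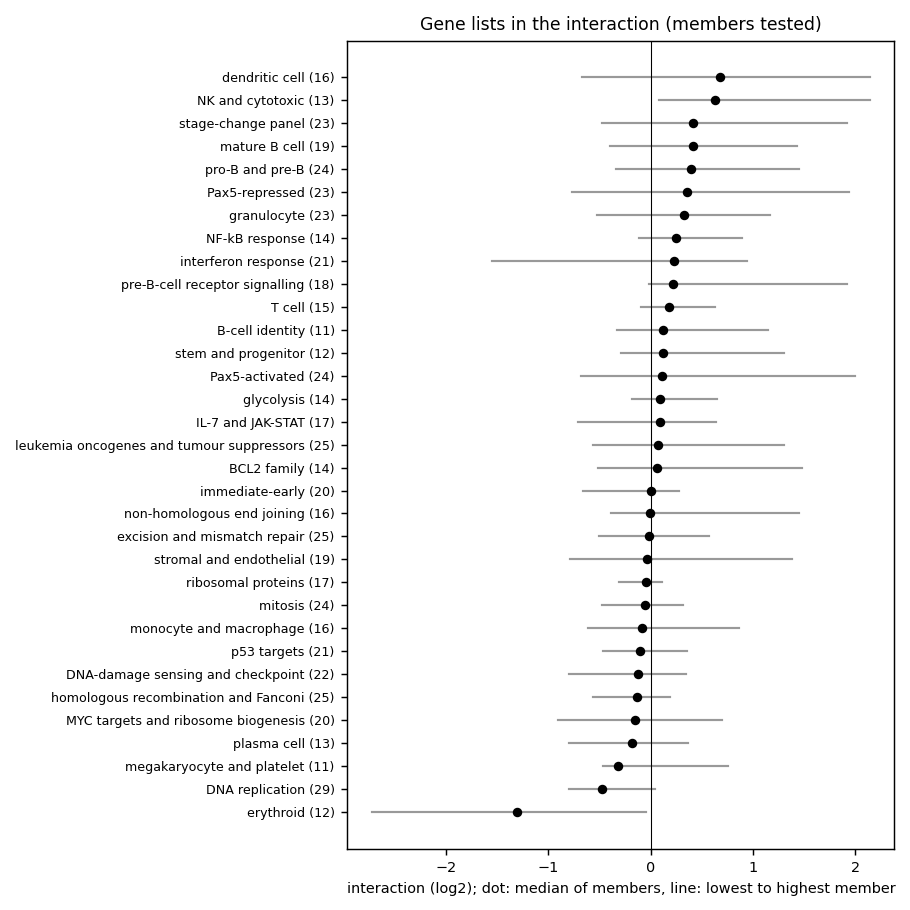
Median interaction (dot, log2) and lowest to highest member (line) of each gene list, with the number of members tested in brackets. The erythroid list has the lowest median at -1.31 and the dendritic cell list the highest at 0.68.

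Of 29 DNA replication genes 28 had an interaction below 0, with a median of -0.47, beside 47.6% of all genes below 0. None was called (0.185% of all genes were), and 7 had an unadjusted p under 0.05 (8.47% of all genes did). The list mean was 8.79 to 9.73 in leukemic Pax5+/- arrays and 8.52 to 9.12 in preleukemic Pax5+/- arrays. It was 9.49, 9.42, 9.62 and 9.61 in leukemic WT arrays and 9.13, 8.18 and 8.32 in preleukemic WT arrays 1, 2 and 3. Preleukemic WT array 1 was the highest of its group, as it was for the mitosis list. Without that array the median was -0.75 and Pcna, the sliding clamp of DNA polymerases, and Mcm5, a helicase subunit, were called lower (interactions of -0.64 and -0.91, adjusted p = 0.0177 and 0.0315). The median of the mitosis list was -0.05 over 24 genes and -0.64 without array 1.

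Means of other marrow cell lists varied within groups. All 12 erythroid genes had a negative interaction (median -1.31), beside 47.6% of all genes. None was called and 8 had an unadjusted p under 0.05, beside 0.185% and 8.47% of all genes. The erythroid mean spanned 6.22 to 6.98 in leukemic and 6.74 to 7.22 in preleukemic Pax5+/- arrays. It was 9.50, 9.26, 7.03 and 7.69 in leukemic WT arrays and 8.34, 6.82 and 6.82 in preleukemic WT arrays. Leukemic WT lay above every leukemic Pax5+/- array, with arrays 1 and 2 far above. The median interaction stayed between -1.87 and -0.76 when single arrays were left out. Klf1, a transcription factor of red cells, came closest to a call at -0.84 ± 0.25 (SE; limma adjusted p = 0.271).

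All 13 NK and cytotoxic genes were above 0 (median 0.63), and the median was 0.14 without preleukemic WT array 1 and 1.52 without leukemic WT array 2. Of 16 dendritic cell genes 14 were above 0 (median 0.68, and 0.32 without preleukemic WT array 1). Over all genes tested 52.4% were above 0. Tcf4, a factor of plasmacytoid dendritic cells that B-lineage cells also use, had an interaction of 0.81 ± 0.19 (SE; limma adjusted p = 0.0952). The granulocyte median was 0.33 over 23 genes and -0.66 without preleukemic WT array 1, so its sign rests on that array. What part these cells have in the 29 called genes was not tested.

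**Figure D5:**
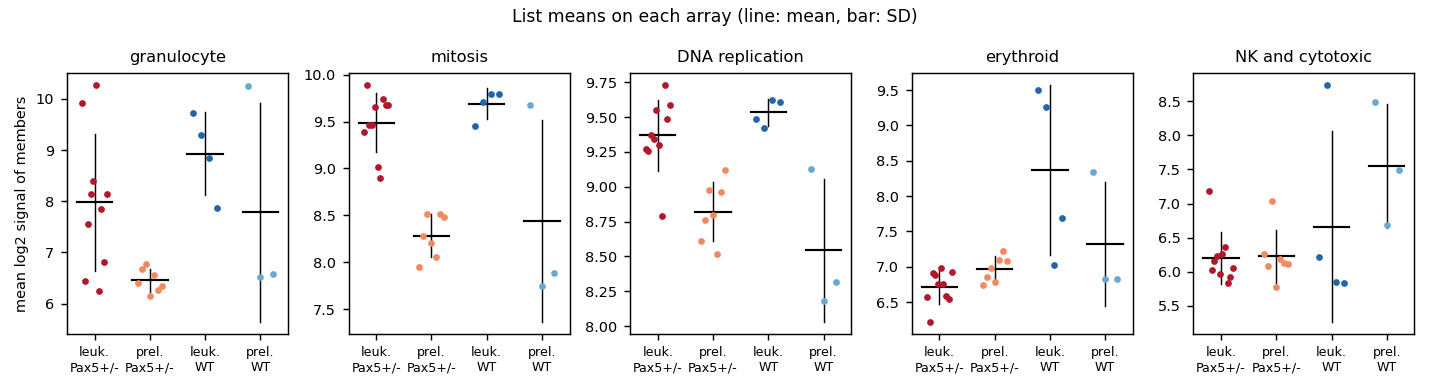
Mean log2 signal of the members of 5 gene lists on each of the 24 arrays, in 4 groups per panel (points: arrays; line: group mean; bar: SD). Preleukemic WT array 1 stands above arrays 2 and 3 in every panel, and leukemic WT arrays 1 and 2 have the highest erythroid means.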

How the data were processed

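Messenger RNA was measured on 24 one-colour Affymetrix mouse gene arrays. The authors deposited log2 values for 35556 probe sets (3.48 to 14.2). The submitters' processing notes name RMA and oligo, an R package. With RMA, background is removed, array distributions are made equal by quantiles and probes are combined, so differences of dim genes are compressed. For software versions, filtering and batch handling nothing is given in the sources used here. Scanner files were not used.

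Stage and genotype in the labels set the 4 groups. Of the probe sets, 21789 had 1 gene symbol in the platform table, 1621 several and 12146 none, and those with 1 symbol named 19938 genes. Of the 999 genes with several probe sets the one with the highest mean was used. A gene was tested when at least 3 arrays exceeded their 30th percentile (the dim level), which set 4291 genes aside. R 4.3.3 with limma 3.58.1 (lmFit, then contrasts.fit and eBayes) fitted the 4 group means jointly, with 20 degrees of freedom left and a prior worth 2.29, and two-sided p-values were adjusted by Benjamini-Hochberg over 15647 genes. The fit was tested on simulated data. Where a gene was dim, its dim arrays took the dim level, and such folds are lower bounds.

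Named were Pax5, the 15 called genes with the largest interaction in each direction (leaving out antigen receptor segments, predicted genes, small RNAs, Y-linked genes and Xist), genes not called with the smallest p up to 10 a direction, genes called with opposite stage changes, the leading member of each of 34 lists and a panel of genes of B-cell leukemia. The other 13 called genes were added after their values were seen, so that every called gene is described. Genes, lists and members were chosen with earlier results of these data known. Some list genes were not analysed here, and the Y-linked mean used the 3 genes available. The labels give samples as biological replicates. No sign was seen that replicate numbers in the labels pair mice. Deviations from group means correlated with a mean r of -0.027 (-0.363 to 0.318) over 24 pairs of equal number. The mean r was 0.004 over 177 pairs of different number. A mean near 0 cannot show that equal numbers share no litter or batch.

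Alternatives were a trended and robust eBayes, group-wise array weights, the dim filter dropped or raised to the 50th percentile, arrays centred on their medians, quantile normalization repeated, the mean over probe sets, a replicate block, the Y-linked mean as a covariate and leaving out each array. Motifs were searched in RefSeq promoters (GRCm38.p6) with Python scripts.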

Additional observations from a re-analysis of the deposited data

Results flagged for a closer look

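The stage change differed between the genotypes by the interaction test for 29 genes. With values in log2 units (Pax5+/- minus WT), these were Dock9 (2.79), Clcf1 (2.26), Klra8 (2.07), Slc1a5 (1.95), Edaradd (1.95), Pacs2 (1.67), Klhl14 (1.62), Tmc7 (1.55), Notch2 (1.42), Enpep (1.22), Tpd52 (1.11), Tmc6 (1.08), Camk1d (1.02), Tmc8 (0.98), Pear1 (0.98), Hdac11 (0.93), Galnt11 (0.87), Col5a3 (0.84), Tmem106b (0.84), Adcy7 (0.80), Extl3 (0.75), Itpr3 (0.71), Fxyd6 (0.69), Nup210 (0.69), Mtor (0.63), Grb7 (0.55), Zfp106 (0.54) and Flii (0.53), with Oaf (-1.14) the only one below 0. Klra8 and Tmc7 had passed the dim filter through preleukemic WT alone, the group where they are high.

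Single arrays lay far from the rest of their group, by Dixon's test at its 95% level, in 19 of 186 groups of values, where chance gives about 1 in 20. For single genes these were Pax5 in leukemic WT array 2 (6.34, others from 10.03 to 10.74), Klhl14 in leukemic Pax5+/- array 5 (5.18, others from 5.33), Tmc7 in leukemic Pax5+/- array 2 (5.23, others up to 5.12), Notch2 in leukemic Pax5+/- array 1 (10.24, others up to 9.60) and Tpd52 in leukemic Pax5+/- array 2 (6.60, others from 7.26). In preleukemic Pax5+/- mice they were Galnt11 in array 1 (7.91, others up to 7.58) and Fxyd6 in array 4 (7.74, others up to 7.57). Preleukemic WT, with 3 arrays, gave no flag and appears not to be among the 186 groups, so its arrays cannot be read as alike. The granulocyte means there were 10.26, 6.53 and 6.57.

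Leukemic Pax5+/- array 1 stood apart in 5 list means. It was high for mature B-cell genes (9.49, others up to 8.69), the NF-kB response (9.09, others up to 8.25) and NK and cytotoxic genes (7.19, others up to 6.36). It was low for end joining (7.89, others from 8.12) and for excision and mismatch repair (7.75, others from 7.95). Leukemic WT array 2 was high for NK and cytotoxic genes (8.74, others up to 6.22) and T-cell genes (7.33, others up to 6.58). Preleukemic Pax5+/- array 3 was high for NK and cytotoxic genes (7.03, others up to 6.26) and dendritic cell genes (7.85, others up to 7.53). Low list means were those of MYC targets in leukemic Pax5+/- array 3 (8.87, others from 9.38), DNA replication in array 7 (8.79, others from 9.26) and stromal and endothelial genes in array 8 (7.17, others from 7.80).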

How the results depend on the processing

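Without single arrays, the interaction called 10 to 39 genes higher (28 with all arrays) and 0 to 9 lower (1 with all arrays). The stage comparisons called 4180 to 4401 genes higher and 5018 to 5589 lower in Pax5+/- and 2016 to 3044 higher and 2048 to 4066 lower in WT mice. The 95% interval lay within 1 log2 unit of 0 for 13324 to 13880 genes, and the Pax5 interaction ran from -1.51 to -0.04, never called. Higher counts fell most without preleukemic WT array 3 (10) and leukemic WT array 4 (18, and 0 lower). With the replicate block 14 genes were higher, all among the 28, and 3 lower, and Pax5 was at -0.31 (adjusted p = 0.978). Whether mice of equal replicate number share a litter or batch is not given in the labels. Lower counts were also 3 after repeated quantile normalization, 3 with the mean over probe sets and 2 with the Y-linked mean as a covariate, which kept 21 of the 28 among 27 higher. The cause of these shifts was not tested. Centring arrays on their medians split the Pax5+/- stage comparison into 5066 higher and 3502 lower genes (4354 and 5485 as deposited) and left the interaction at 28 and 1. No called gene changed the sign of its interaction. The calls of Dock9, Slc1a5, Edaradd, Pacs2, Tmc7, Enpep, Tmc6, Hdac11, Col5a3 and Fxyd6 held in all 24 fits without single arrays and under every other alternative that tested them. Tmc7 had passed the dim filter through preleukemic WT alone, where it is high, so that its call held is no added support. The 3 preleukemic WT arrays limit all 29 calls, and signal near background limits Klra8, Tmc7, Klhl14 and Enpep. P-values measure the spread between these mice, by 1 estimate per gene that the 4 groups share. For Enpep, Tmc7, Col5a3 and Klra8 the preleukemic WT SD was 0.60, 0.53, 0.33 and 1.39, beside at most 0.08, 0.09, 0.09 and 0.27 elsewhere. The SE and p-values of these genes may thus be too small.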

Other observations

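Preleukemic WT array 1, which had higher granulocyte, NK and mitosis means than the other 2 arrays of its group, also bore on which genes were called. Without it the interaction of Nusap1, a spindle protein, was -1.35 (limma adjusted p = 0.0233), that of Cbx3, a heterochromatin protein, -0.80 (adjusted p = 0.0334), and that of Dek, a chromatin protein, -0.57 (adjusted p = 0.0315). On the higher side, Cnr2, a cannabinoid receptor of B cells, was called at 1.48 (adjusted p = 0.0352) and Fgd6, a Cdc42 activator, at 1.38 (adjusted p = 0.0205). None of these 5 genes was called with all 24 arrays, and they were chosen after their values were seen. What part that array's cell make-up has in these values was not tested.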
